A study of Mus musculus with 11 samples.

Results

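Tbr1, Bcl11b, Fezf2, Sox5, Pou3f2, Pou3f3, Cux1, Cux2 and Rorb are transcription factors that mark neurons bound for different layers of the neocortex. These 9 genes were taken as a list, by name, from the 48440 genes in the count table of the cultures and the 32285 genes in the matrices of the embryos. Excitatory neurons of the neocortex arise from apical progenitors (APs) at the ventricle, partly through intermediate progenitors, and deep-layer neurons are made before upper-layer neurons. Fezf2, Bcl11b, Sox5 and Tbr1 are known for deep-layer neurons that project out of the cortex or to the thalamus. Pou3f2, Pou3f3, Cux1 and Cux2 are known for the upper layers, and Rorb for the layer between them that receives thalamic input.

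The study asked what loss of Syncrip, an RNA-binding protein, does to neural progenitor cells (NPCs) of the mouse at E14.5. Its cKO mice, on a C57BL/6 background, carry loxP sites around exons of Syncrip, and the study uses the name cKO for those with Emx1-Cre, which acts in the dorsal forebrain. Nestin-Cre, which acts in neural progenitors at large, was used for other mice, and the sample labels say only cKO. RNA-seq covered 3 WT and 3 cKO cultures of NPCs dissected at E14.5 and kept in a medium with EGF and bFGF, and scRNA-seq covered the dorsal cortex of 1 WT and 1 cKO embryo from the same pregnant mouse. The labels do not say whether the cultures came from separate embryos, so their p-values measure the spread between cultures, which may be technical.

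The cultures had 16962903 to 22708400 counts each, and by Y-linked counts 2 WT and 1 cKO cultures were male. Of the barcodes, 8214 WT and 9559 cKO cells passed the filter, with a median of 11705 and 11016 unique molecular identifiers (UMIs, 1 per captured transcript), and 22 barcodes occurred in both libraries. By Xist and Y-linked UMIs the WT embryo was male and the cKO embryo female, so sex, embryo and genotype cannot be told apart. Syncrip itself does not check the deletion here, because the cultures were counted over the whole gene (79.2 ± 1.09 CPM in WT and 86.8 ± 4.69 in cKO, SD, n = 3) and the embryos at the 3′ end (314 and 324 CPM in APs). CPM is a count scaled to the total of its library or, in the embryos, summed UMIs scaled to all UMIs of a class, and it is compared between classes and genotypes but not between genes.

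Cells were clustered with the 9 genes left out of the clustering genes, and 22 of 27 clusters were named from markers that include none of them. All class names mean cells like that type. The excitatory classes were newborn neurons (1844 WT and 1708 cKO cells), callosal neurons with Inhba among their leading genes (1014 and 838), corticofugal neurons with Ldb2 or Crym among theirs (882 and 970) and corticothalamic and subplate neurons led by Hs3st4 (404 and 538). Below, all excitatory neurons means these 4 classes pooled, without an unnamed cluster led by Tafa1 (182 WT and 589 cKO cells). In the alternative clusterings a cluster led by Tafa1 was named newborn neurons. Other classes were APs, intermediate progenitors, Cajal-Retzius cells, GABAergic cells of the ganglionic eminence (GE), the ventral source of inhibitory neurons, and striatal-type GE neurons. Endothelial cells, microglia, meningeal fibroblasts and red blood cells gave a background level for each gene, which includes free RNA in the droplets. With 1 embryo per genotype there was no test, and the 95% intervals in parentheses cover counting error only.

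The promoters of Pou3f2 and Pou3f3 are shown because these paralogs had the most similar levels over clusters among the 9 genes, while their ratios between the embryos differed. Each window runs from 250 bases before to 50 after the start of the gene, 5′ to 3′ (RefSeq, GRCm38.p6, chr4:22488317-22488616 on the minus strand and chr1:42695518-42695817 on the plus strand), with CCAAT in capitals.

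Pou3f2: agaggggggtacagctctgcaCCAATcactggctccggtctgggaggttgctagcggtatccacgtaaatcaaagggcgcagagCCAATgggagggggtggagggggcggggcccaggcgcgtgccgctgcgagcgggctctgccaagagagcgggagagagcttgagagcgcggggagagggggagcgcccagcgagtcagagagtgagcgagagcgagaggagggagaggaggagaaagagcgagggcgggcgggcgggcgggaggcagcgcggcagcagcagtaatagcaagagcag

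Pou3f3: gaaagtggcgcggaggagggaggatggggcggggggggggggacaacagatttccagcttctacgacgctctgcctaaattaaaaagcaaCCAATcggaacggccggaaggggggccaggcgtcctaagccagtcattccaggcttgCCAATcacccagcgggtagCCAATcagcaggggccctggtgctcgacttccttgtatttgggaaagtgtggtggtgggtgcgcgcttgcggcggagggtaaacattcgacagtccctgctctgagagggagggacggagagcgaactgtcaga

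The Pou3f2 window holds 24 CpG and the Pou3f3 window 18, against a median of 7 over 32851 promoters of the same length. CCAAT or its reverse complement occurs 2 times in Pou3f2 and 3 times in Pou3f3, and at least once in 37.4% of all promoters. On either strand, neither window holds TATAAA, found in 13.6% of promoters, or ATGCAAAT, the octamer known for POU factors, found in 1.74%. These matches describe letters in a window only.

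Fezf2, a zinc finger factor that specifies neurons projecting to the brainstem and spinal cord (chromosome 14, 12341892 to 12345865, minus strand, mm10), was highest in corticofugal neurons. In the WT embryo its level was 376 CPM (366 to 385) there, 225 (213 to 238) in corticothalamic and subplate neurons, 120.1 (115 to 126) in callosal neurons and 79.3 (75.7 to 83.1) in newborn neurons. APs had 86.1 CPM (81.2 to 91.4) and intermediate progenitors 80.1 (74.4 to 86.2), whose interval overlaps those of APs and of newborn neurons. Progenitors were thus above the background classes (8.91 to 31.4 CPM), whereas GE cells at 17.5 CPM were not.

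Bcl11b, a zinc finger factor of subcerebral and of striatal neurons (chromosome 12, 107910403 to 108003602, minus strand), split the excitatory classes into a high and a low pair. Its WT level was 915 CPM (899.9 to 930.2) in corticofugal and 862 (838 to 886) in corticothalamic and subplate neurons, against 359 (349.6 to 369) in callosal and 349 (341 to 356) in newborn neurons, which overlap. Striatal-type GE neurons had the highest level of all classes, 1663 CPM (1585 to 1743), and other GE cells had 541 CPM. APs at 41.7 CPM lay within the background classes (17.8 to 154 CPM).

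Sox5, a factor known to time the production of corticofugal neurons (chromosome 6, 143828425 to 144781977, minus strand), was ordered by class as well. The WT level was 1151 CPM (1137 to 1165) in newborn, 1931 (1909 to 1954) in callosal, 3599 (3569 to 3629) in corticofugal and 4158 (4106 to 4211) in corticothalamic and subplate neurons. The order of the last pair was not stable: in cKO they had 4314 and 4302 CPM with overlapping intervals, and at a finer clustering the corticofugal class was the higher in WT. APs at 349.9 CPM lay within the background classes (80.2 to 397 CPM).

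Tbr1, a T-box factor of corticothalamic, subplate and Cajal-Retzius neurons (chromosome 2, 61802930 to 61814114, plus strand), was highest in those classes. They had 268 CPM (255 to 282) and, for Cajal-Retzius cells, 226 (196 to 259.997) in WT, which overlap. Corticofugal neurons followed at 154 CPM (148 to 160.2), then callosal neurons at 101 (96.4 to 107) and newborn neurons at 100.3 (96.2 to 105), which overlap too. Intermediate progenitors had 49.2 CPM, and APs at 9.74 CPM lay within the background classes (7.85 to 15.6 CPM).

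Pou3f2 (Brn2) and Pou3f3 (Brn1) are POU-homeodomain factors that act in the production and migration of upper-layer neurons, and each gene is a single exon (chromosome 4, 22482780 to 22488366, minus strand, and chromosome 1, 42695768 to 42703176, plus strand). Pou3f2 in WT had 377 CPM (365 to 390.3) in intermediate progenitors, 331 (324 to 339) in newborn, 241 (233 to 249) in callosal, 49.5 (46.1 to 53.2) in corticofugal and 31.4 (26.97 to 36.3) in corticothalamic and subplate neurons. For Pou3f3 the same classes had 384 CPM (371 to 397), 399 (391 to 408), 301 (292 to 309.98), 99.4 (94.5 to 105) and 49.4 (43.8 to 55.5). APs had 206 CPM of Pou3f2 and 292 of Pou3f3, above the background classes (4.45 to 41.02 and 23.8 to 60.2 CPM), within which the corticothalamic and subplate levels of both genes lay.

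Cux1 and Cux2, homeodomain factors of upper-layer neurons (chromosome 5, 136248135 to 136567490, minus strand, and chromosome 5, 121856366 to 122050102, minus strand), were lowest in corticofugal neurons, where Fezf2 was highest. Cux2 in WT had 183 CPM (178 to 189) in newborn, 112 (107 to 118) in callosal, 35.9 (31.2 to 41.1) in corticothalamic and subplate and 8.33 (6.95 to 9.91) in corticofugal neurons. Cux1 had 266 CPM (258 to 275) in callosal, 228 (222 to 235) in newborn, 56.7 (50.7 to 63.2) in corticothalamic and subplate and 18.1 (16.03 to 20.4) in corticofugal neurons. The highest of these classes was 22.01-fold above the lowest for Cux2 and 14.7-fold for Cux1, and the lowest was within or under the background classes (4.45 to 23.02 and 26.7 to 192 CPM). GE cells had more of both genes, 346 CPM of Cux1 and 329 of Cux2, and their cluster led by Nxph1 and Sst had 629.6 CPM of Cux2 against 57.1 in the one led by Adarb2.

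Rorb, a nuclear receptor known for the thalamic input layer (chromosome 19, 18930605 to 19111196, minus strand), was highest in corticothalamic and subplate neurons, at 273 CPM (259 to 286) in WT. Corticofugal neurons had 88.7 (84.1 to 93.6) and callosal neurons 87.2 (82.5 to 92.1), which overlap, and newborn neurons 43.7 (41.02 to 46.5). APs had 74.7 CPM (70.1 to 79.6), and the background classes 0 to 50.2 CPM, a range that holds the level of newborn neurons. The corticofugal cluster led by Kctd8 had 134 CPM and the one led by Slit3 28.1 CPM.

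**Figure D1:**
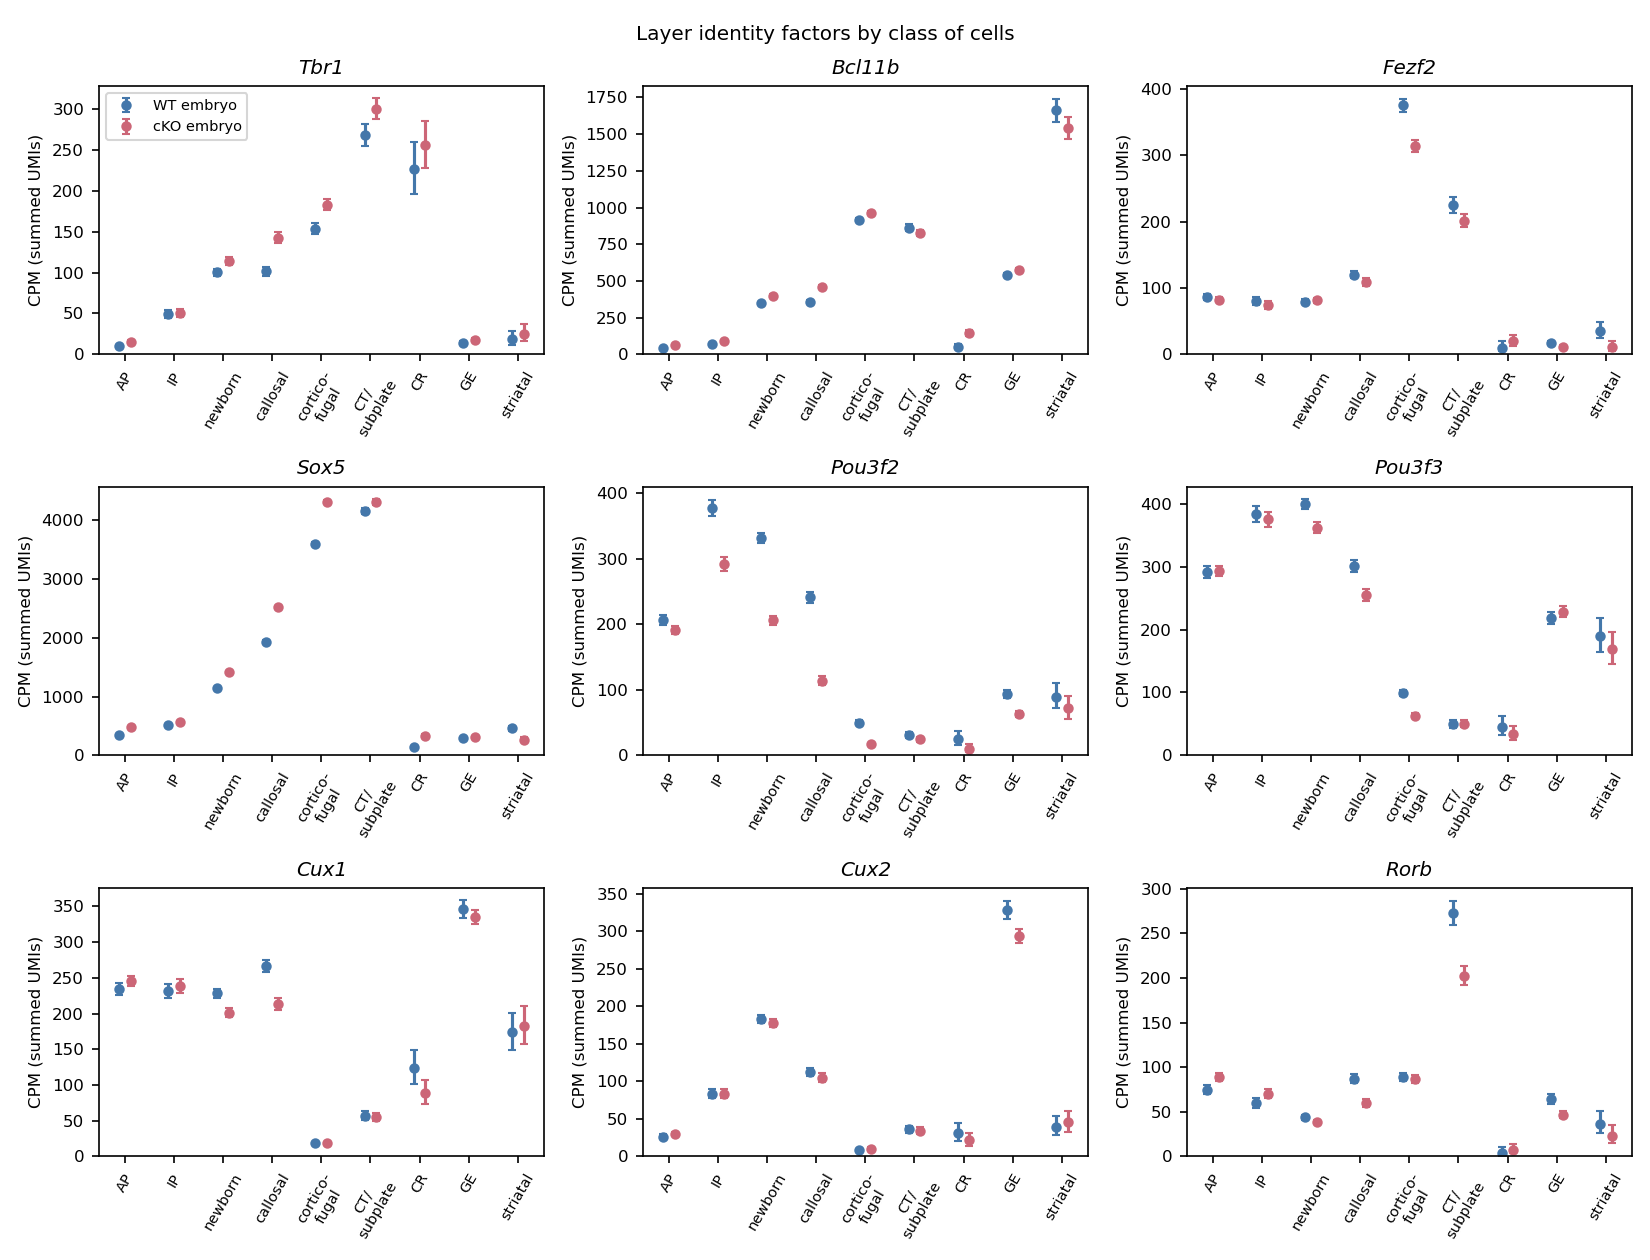
Level of each factor in CPM of summed UMIs (vertical axes, from 0) in APs, intermediate progenitors (IP), excitatory neurons (CT, corticothalamic), Cajal-Retzius cells (CR), GE cells and striatal-type GE neurons of the WT (blue) and cKO (red) embryo, with exact Poisson 95% intervals as bars. Among excitatory neurons, Tbr1, Bcl11b, Fezf2, Sox5 and Rorb are highest in the corticofugal or the corticothalamic and subplate class, and Pou3f2, Pou3f3, Cux1 and Cux2 in the newborn or callosal class.

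Likeness over the 22 clusters with at least 50 WT cells was measured as Pearson's r of log2(CPM + 1) in WT, as a description with no test, since the clusters share a library. Pou3f2 and Pou3f3 had r = 0.92 (0.91 in cKO), Cux1 and Cux2 0.81, Fezf2 and Sox5 0.72, and Fezf2 and Cux1, the lowest pair, -0.38. Among 11350 other named genes, Tbr1 was most like Wnt7b (r = 0.94), Bcl11b most like Pcsk2os1 (r = 0.95), Sox5 most like Tiam2 (r = 0.93) and Fezf2 most like Slc16a1 (r = 0.81). Pou3f2 and Pou3f3 had the same nearest gene, Sinhcaf (r = 0.90) for each. Cux1 was most like Erbin (r = 0.87) and Cux2 most like Kcnc2 (r = 0.84).

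UMIs of deep-layer and upper-layer factors were found in the same newborn neurons. Cells were thinned to 5000 UMIs, which left 3920 WT and 3792 cKO excitatory neurons and dropped 224 and 262 shallower ones. Cux2 was found in 19.8% (17.9 to 21.7) of WT neurons with Fezf2 and 45.97% (43.9 to 48.1) of those without. Within newborn neurons the shares were 42.8% (38.6 to 47.1) and 55.98% (53.2 to 58.8), and within callosal neurons 23.8% (19.6 to 28.4) and 45.2% (41.2 to 49.3). In the WT background classes (15 to 42 cells each after thinning) the shares were 0 to 9.52% for Cux2 and 0 to 5.26% for Fezf2. Endothelial cells had 8.70% (1.07 to 28.04) for Cux2, an interval that holds the shares with Fezf2 over all neurons and in callosal neurons but not the one in newborn neurons, at a median of 39427 UMIs before thinning against 13463 in excitatory neurons. The share in corticofugal neurons with Fezf2, 2.84% (1.72 to 4.41), was below that of endothelial cells and is read as background. Called doublets were kept and were 0.540 and 0.883% of the newborn clusters and 0.810% of the callosal cluster, and their part in these shares was not tested.

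Pou3f2 was found in 74.2% (71.7 to 76.5) of WT neurons with Cux2 and 40.3% (38.4 to 42.2) of those without. In cKO these shares were 54.1% (51.3 to 56.9) and 23.2% (21.5 to 24.8). Bcl11b was found in 86.01% (84.3 to 87.6) of WT neurons with Fezf2 and 72.3% (70.4 to 74.2) of those without. For Tbr1 the shares were closer, 46.1% (43.8 to 48.5) with and 41.9% (39.8 to 44.02) without Fezf2. The background classes had 6.67 to 10.5% for Pou3f2, 6.67 to 21.1% for Bcl11b and 0 to 8.70% for Tbr1 in WT. The shares of these 3 genes in neurons pool the excitatory classes, which differ in the levels of both genes of each pair. The part of the class mix in them was not tested.

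**Figure D2:**
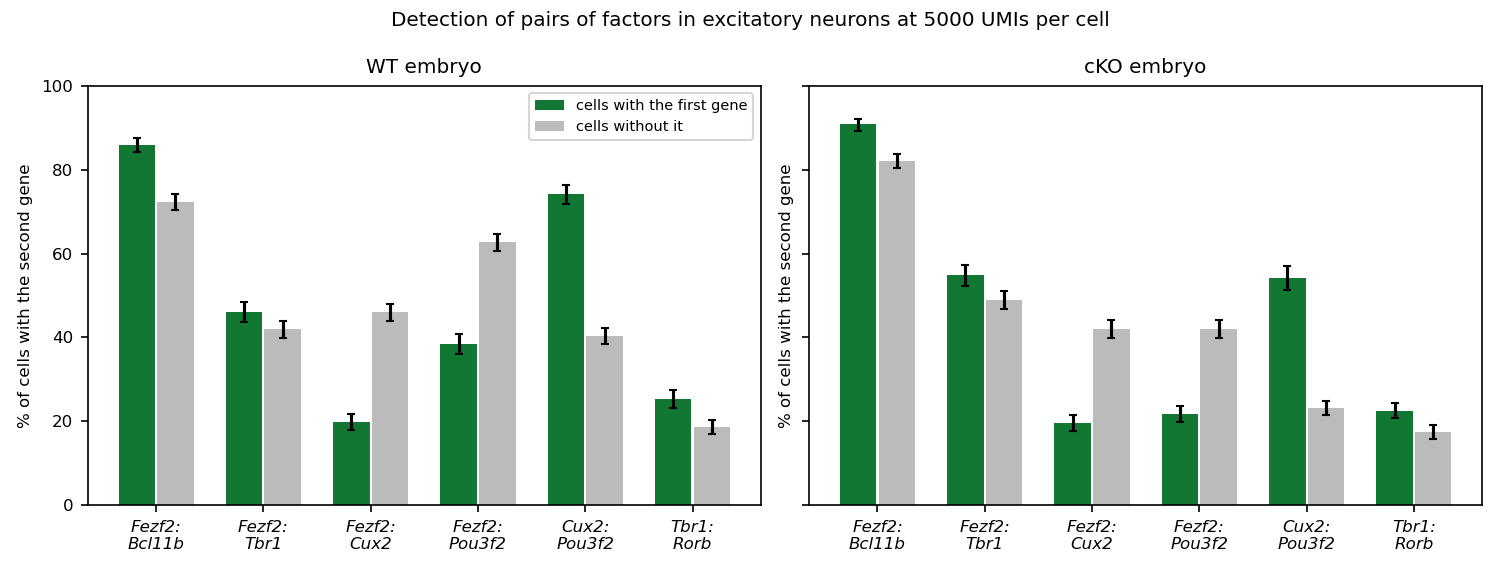
Share of excitatory neurons with a UMI of the second gene of each pair (vertical axis, percent, from 0) among cells with (green) and without (grey) the first, at 5000 UMIs per cell, with exact binomial 95% intervals. Cux2 is found less often in cells with Fezf2 than in cells without in both embryos, and Pou3f2 more often in cells with Cux2.

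Between the embryos, Pou3f2 had the largest ratio of the 9 genes over the 4 excitatory classes pooled (4144 WT and 4054 cKO cells). Its level was 204 CPM (201 to 208) in WT and 106 (104 to 109) in cKO, a log2 ratio of cKO over WT of -0.94 (-0.99 to -0.90). It alone of the 9 was past 1.5-fold there, as were 2.08% of the 12159 genes with at least 200 UMIs. The log2 ratio was -0.68 (-0.74 to -0.63) in newborn neurons (331 and 206 CPM) and -1.08 (-1.17 to -0.99) in callosal neurons (241 and 114 CPM), where it was again alone and 1.52% and 1.48% of all genes were past the fold. In corticofugal neurons it was -1.53 (-1.73 to -1.33) (49.5 and 17.2 CPM, the latter within the cKO background classes at 5.25 to 24.5 CPM), and 2 of the 9 genes, Pou3f2 and Pou3f3, and 2.16% of all genes were past the fold.

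The share of thinned callosal neurons with a Pou3f2 UMI was 63.03% (59.9 to 66.1) in WT and 36.1% (32.8 to 39.5) in cKO, and 84.4% and 62.5% before thinning. In endothelial cells the thinned shares were 8.70% (1.07 to 28.04) and 3.03% (0.0767 to 15.8). Progenitors differed less: the log2 ratio was -0.37 (-0.44 to -0.30) in intermediate progenitors and -0.11 (-0.18 to -0.034) in APs. GE cells, which arise outside the domain of Emx1-Cre, also had less Pou3f2 in cKO, 93.4 CPM (87.1 to 100.01) in WT and 63.2 (58.8 to 67.9) in cKO, a log2 ratio of -0.56 (-0.71 to -0.42). In corticothalamic and subplate neurons the ratio of -0.36 became 0.053 without called doublets.

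Its paralog Pou3f3 had a log2 ratio of -0.32 (-0.35 to -0.28) over all excitatory neurons. In newborn neurons, the largest of these classes, it was -0.14, and in corticothalamic and subplate neurons 0.034. The ratio was -0.66 (-0.78 to -0.55) in corticofugal neurons (99.4 CPM in WT and 62.8 in cKO), -0.24 (-0.31 to -0.17) in callosal neurons, 0.0040 (-0.056 to 0.064) in APs and 0.065 (-0.020 to 0.15) in GE cells.

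Cux1 had a log2 ratio of -0.35 (-0.39 to -0.31) over all excitatory neurons, -0.32 (-0.39 to -0.25) in callosal and -0.18 (-0.24 to -0.12) in newborn neurons. Cux2 had -0.16 (-0.22 to -0.11) over all of them, -0.11 (-0.21 to 0.0024) in callosal and -0.045 (-0.11 to 0.021) in newborn neurons, the last pair with intervals that hold 0. In corticofugal neurons Cux1 had 0.00094 and Cux2 0.32, and in corticothalamic and subplate neurons -0.039 and -0.064. The pooled value of each gene was thus lower than in any single class. Newborn and callosal neurons were 22.4% and 12.3% of WT and 17.9% and 8.77% of cKO cells. The part of this class mix in the pooled ratios was not tested. With the 6 excitatory clusters weighted equally, Cux2 stood at -0.027 and Cux1 at -0.19. Rorb had -0.55 (-0.68 to -0.41) in callosal and -0.43 (-0.53 to -0.32) in corticothalamic and subplate neurons, a class in which none of the 9 and 1.83% of all genes were past 1.5-fold. Outside the cortical classes, Rorb had -0.45 in GE cells and -0.66 in striatal-type GE neurons. For Cux1 the values in these 2 classes were -0.047 and 0.069, and for Cux2 -0.16 and 0.20.

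Over all excitatory neurons Sox5, Tbr1 and Bcl11b were higher in cKO and Fezf2 slightly lower. Sox5 had a log2 ratio of 0.34 (0.32 to 0.35), between 0.049 in corticothalamic and subplate and 0.38 in callosal neurons. Tbr1 had 0.33 (0.29 to 0.38) in the pooled classes and 0.50 (0.39 to 0.60) in callosal neurons (101 CPM in WT and 143 in cKO). Bcl11b had 0.21 (0.19 to 0.23) when pooled, 0.36 (0.31 to 0.42) in callosal and 0.075 (0.042 to 0.11) in corticofugal neurons, and 0.095 when pooled with clusters weighted equally. In corticothalamic and subplate neurons it went the other way, at -0.058 (-0.11 to -0.0038) (862 CPM in WT and 827 in cKO). Fezf2 had -0.079 (-0.12 to -0.039) when pooled and -0.26 (-0.31 to -0.21) in corticofugal neurons (376 and 314 CPM). In GE cells the ratios were 0.15 for Sox5, 0.33 for Tbr1, 0.087 for Bcl11b and -0.57 for Fezf2, which was not above background there in WT.

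In APs, Tbr1 at 0.67 (0.37 to 0.99) and Bcl11b at 0.62 (0.47 to 0.77) were past 1.5-fold, as were 2.05% of all genes. The WT levels of both in APs lay within the background classes. Without called doublets the ratios of Tbr1 and Bcl11b stood at 0.21 and 0.17. Of 12 general neuron genes, 11 were higher in cKO APs, with a sum of 1144 CPM in WT and 1359 in cKO. None of the 9 was past the fold in intermediate progenitors or GE cells, where 1.63% and 1.2% of all genes were. In Cajal-Retzius cells (64 WT and 111 cKO) 4 of the 9 had at least 200 UMIs, of which Bcl11b at 1.44 (0.97 to 1.94) and Sox5 at 1.24 (0.94 to 1.54) were past it, as were 3.53% of all genes. The 8 GABAergic neuron genes summed to 10.2 CPM in WT and 41.5 in cKO Cajal-Retzius cells, with 5 of 8 higher and 0 lower, and to 159 and 199 in APs. Their part in the ratios of Bcl11b and Sox5 was not tested.

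**Figure D3:**
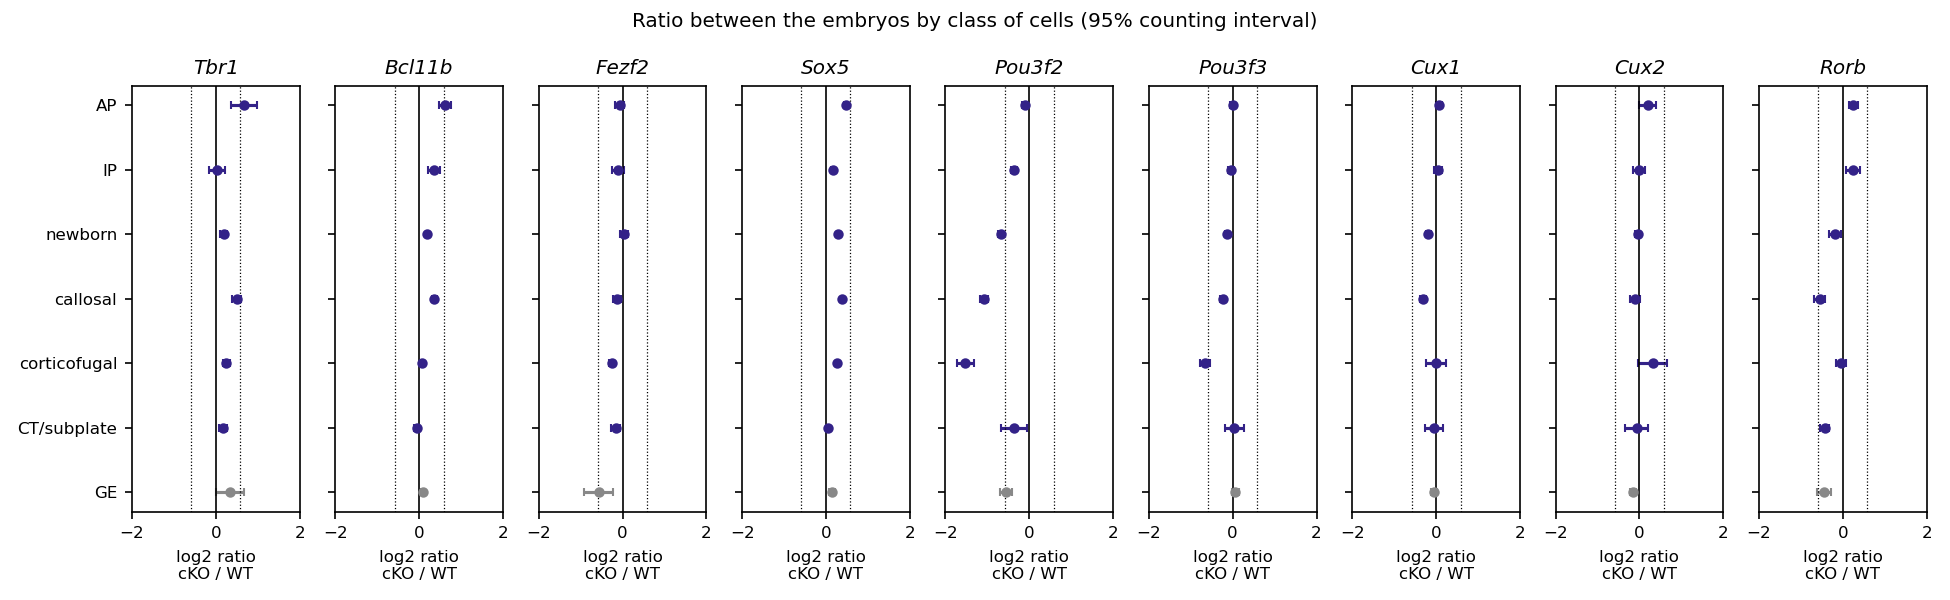
Log2 ratio of the cKO over the WT level of each factor (horizontal axes) by class of cells, with exact 95% intervals for counting error. Dotted lines mark 1.5-fold and GE cells are grey. Pou3f2 lies past the line in newborn, callosal and corticofugal neurons, at -0.68, -1.08 and -1.53.

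Markers of GE cells moved with genotype as well. The 8 GABAergic neuron genes summed to 25.1 CPM in WT and 41.8 in cKO excitatory neurons, with all 8 higher in cKO, and GE cells were 12.6% of WT and 15.4% of cKO cells. Bcl11b, Cux1 and Cux2 are abundant in GE cells, and the part of this RNA in their ratios was not tested. Of 23 other layer and projection neuron genes with at least 200 UMIs in excitatory neurons, Tshz2 (0.64) was higher and Crym (-1.03) lower by at least 1.5-fold (Tshz2 was named after its value was seen), with a median log2 ratio of 0.04 against -0.01 over all genes. None of 6 paralogs and none of 12 general neuron genes was past the fold. Of the 12159 genes with at least 200 UMIs in these neurons, 2.08% were past it.

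In the cultures, the only comparison with replicates, 7 of the 9 factors passed the filter on low counts, and 1 rose and 3 fell in cKO by edgeR's quasi-likelihood test with Benjamini-Hochberg adjustment over 14432 genes. Of all genes, 39.5% were called, 19.7% higher and 19.8% lower. The share of all genes whose WT and cKO cultures do not overlap was not counted.

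Pou3f2 fell. WT cultures 1 to 3 gave 69.3, 65.7 and 75.1 CPM and cKO cultures 1 to 3 gave 51.2, 47.5 and 49.8, without overlap. The log2 fold change was -0.50 (SE 0.087, adjusted p = 0.000514), and leaving out any 1 culture kept the call. Pou3f3 is listed at 0 in every culture and could not be measured. It lies wholly inside the noncoding gene Gm20646, and all 10755 genes of the table that lie wholly inside another gene are at 0. Gm20646 gave 20.6, 22.3 and 22.04 CPM in WT and 24.8, 27.7 and 24.7 in cKO, a log2 fold change of 0.25 (SE 0.098, adjusted p = 0.0589, edgeR).

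Sox5 rose. Its values were 99.8, 93.1 and 104 CPM in WT cultures and 130.2, 119 and 112 in cKO cultures, without overlap, with a log2 fold change of 0.28 (SE 0.079, adjusted p = 0.0117). The call was lost without WT culture 2 (0.23, edgeR adjusted p = 0.0609), without cKO culture 1 (0.21, edgeR adjusted p = 0.0939) and with a correction for gene span (0.17, edgeR adjusted p = 0.0717). Rorb fell, from 132, 116 and 116 CPM to 108, 100.02 and 98.2, without overlap, with a log2 fold change of -0.25 (SE 0.078, adjusted p = 0.0196). Leaving out cKO culture 2 or 3 gave edgeR adjusted p of 0.0757 and 0.105.

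Bcl11b fell with overlapping groups, 14.1, 19.5 and 22.8 CPM in WT against 15.3, 12.4 and 11.5 in cKO, and a log2 fold change of -0.52 (SE 0.17, adjusted p = 0.0239). Without WT culture 2, WT culture 3, cKO culture 2 or cKO culture 3 its edgeR adjusted p was 0.0785, 0.112, 0.0635 and 0.103. Cux1 did not pass the test although its groups did not overlap, at 104, 107 and 99.4 CPM in WT against 95.8, 93.6 and 93.9 in cKO (-0.13, SE 0.070, adjusted p = 0.157, edgeR). Of its exonic bases 27.1% are shared with other genes of the table. Cux2 overlapped, at 37.3, 42.6 and 48.4 CPM in WT against 44.8, 56.4 and 45.5 in cKO (0.19, SE 0.12, adjusted p = 0.221, edgeR).

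Tbr1 and Fezf2 were at very low counts. Tbr1 gave 0.540, 0.334 and 1.61 CPM in WT against 0.392, 0.757 and 0.530 in cKO (-0.61, SE 0.54, adjusted p = 0.399, edgeR), and without WT culture 3, the highest, its log2 fold change was 0.31. The Fezf2 interval of the count table, given above, stops short at the 5′ end of the GENCODE gene (12342094 to 12348189). Fezf2 had 2, 1 and 7 counts in WT and 1, 0 and 1 in cKO and was not tested. Their sums, 10 and 2, give a cKO over WT ratio of 0.216 (0.0230 to 1.01, counting error only).

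**Figure D4:**
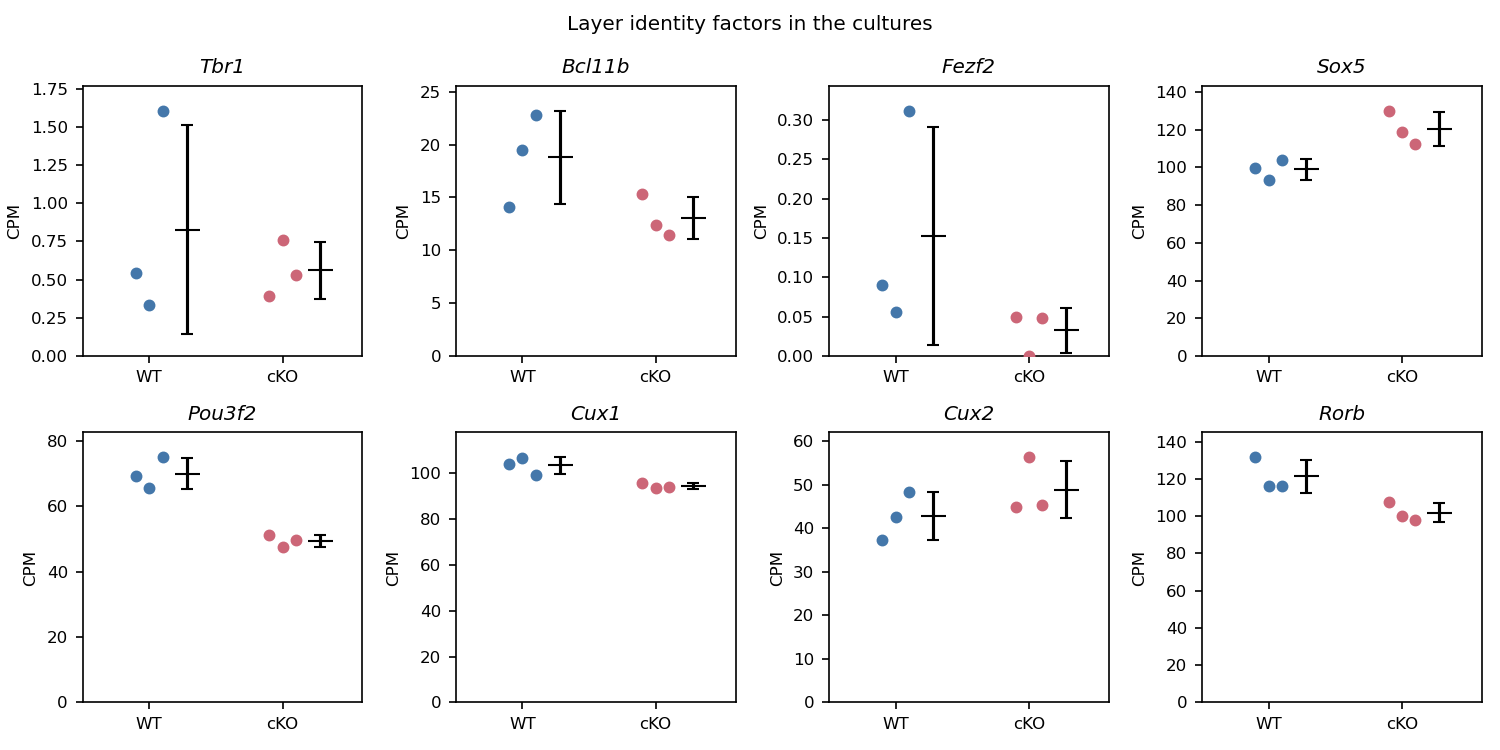
CPM of the factors in 3 WT (blue) and 3 cKO (red) cultures (vertical axes, from 0), with the mean and SD beside the points. Pou3f3 is left out because it was not measured. Every cKO culture lies below every WT culture for Pou3f2, Cux1 and Rorb and above it for Sox5. Of these, Cux1 was not called, and the share of all genes without overlap was not counted.

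In the cultures general neuron and astrocyte genes mostly fell, and fewer cells of a type and less RNA per cell cannot be told apart. General neuron genes fell in 9 of 11 tested members and rose in none, with a median log2 fold change of -0.83, including Stmn2 (-6.56), which regulates microtubules, and the neuronal factor Neurod6 (-4.14). Their sum was 2981 to 3212 CPM in WT and 2641 to 2741 in cKO. Neural progenitor genes rose in 4 and fell in 2 of 7, with the Notch target Hes1 at 2.84. Astrocyte genes fell in 4 of 5, such as the water channel gene Aqp4 (-2.06), GABAergic neuron genes fell in 3 of 6, such as Dlx2 (-2.93), and oligodendrocyte lineage genes rose in 2 of 5, such as Olig1 (0.44). Against the 39.5% called over all genes in either direction, the shares called in the GABAergic and oligodendrocyte lists are near the background. By direction, 19.8% of all genes fell and 19.7% rose, while no GABAergic gene rose and no oligodendrocyte lineage gene fell. Both lists are small, with 6 and 5 genes tested. The part of such shifts in the results for the layer factors was not tested.

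Of 7 paralogs tested, 4 fell and 1 rose, against 19.8% and 19.7% of all genes. Their median was -0.60 against 0.002 over all genes, while their sum was higher in cKO (561 to 614 CPM in WT and 827 to 886 in cKO). Pou3f4 fell from 49.1 ± 1.56 to 30.5 ± 0.693 CPM (SD, n = 3), a log2 fold change of -0.69 (edgeR adjusted p = 4.32e-05). Bcl11a (-0.73) and Sox13 (-0.60, named after its value was seen) fell as well, and Sox6, a relative of Sox5, rose (0.76). Other layer and projection neuron genes rose in 7 and fell in 6 of 22, against 19.7% and 19.8% of all genes, with a median of -0.062. The members with the largest changes, Crym (-6.05), Nxph4 (-2.58), Ldb2 (-1.76) and Mdga1 (-1.53), all fell. The sum of the list was nevertheless higher in cKO, at 1230 to 1263 CPM in WT and 1429 to 1459 in cKO.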

How the data were processed

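RNA-seq reads of the cultures were aligned by the authors to mm10 with HISAT2 and deposited as raw counts per gene, 1 column per culture. The counting program and strand setting were not stated in what was read. Embryo matrices were deposited by the authors as raw UMI counts from Cell Ranger. LACE-seq samples were not analysed here.

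Cultures were compared with edgeR 4.0.16 (filterByExpr, TMM, robust quasi-likelihood test, Benjamini-Hochberg threshold 0.05). Barcodes with 200 or more genes and no more than 10% of UMIs from mitochondria were clustered with Seurat 5.3.0 (2000 variable genes without the 9 factors, 30 components, resolution 0.8). A cluster was named from at least 3 markers raised 1.5-fold and a mean level of the class's markers, standardized over all cells, of at least 0.25. These limits were set after the clusters were seen. UMIs were summed per class and embryo. Called doublets (298 WT and 444 cKO) were kept, and leaving them out was an alternative. Of the clusters, 5 had no name (999 WT and 1516 cKO cells). Intervals are exact Poisson, conditional binomial or binomial at 95%. Genes outside the 9 are named if nearest to a factor in level over clusters, among the 4 members of a list with the largest change in the cultures, or as markers or leading genes of a cluster. The members and lists were chosen with earlier results of these data known. A few named genes are not reported here.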

Additional observations from a re-analysis of the deposited data

Results flagged for a closer look

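Of the 7 factors tested in the cultures, 4 had a ratio of the opposite sign in the APs of the embryos, with an interval there that excluded 0. Of these, Rorb and Bcl11b were called in the cultures and Cux1 and Tbr1 were not. The share of all genes with opposite signs was not counted. For Cux1 and Rorb the WT and cKO cultures also did not overlap, and the share of all genes without overlap was not counted. Cux1 had a log2 fold change of -0.13 in the cultures and a log2 ratio of 0.068 in APs. For Rorb the values were -0.25 and 0.25. The cultures overlapped for Bcl11b (-0.52 and 0.62) and Tbr1 (-0.61 and 0.67), whose AP ratios without called doublets were 0.17 and 0.21. The WT levels of Bcl11b and Tbr1 in APs lay within the background classes. The difference was not tested, and the embryo values rest on 1 embryo per genotype.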

How the results depend on the processing

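In the cultures, other scalings and filters, DESeq2, limma-voom, sex as a factor and a replicate block left every call on the 9 factors as it was, and a mean of at least 1 CPM left Tbr1 untested. With the replicate block Pou3f2 stood at -0.50 and 3189 genes were called higher and 3216 lower, against 2843 and 2858. The deviations of log CPM from the mean of the genotype correlated at 0.26, -0.05 and 0.12 between same-numbered cultures. The number is thus not taken to pair them. With a loess offset on gene span Sox5 fell short at 0.17 and 0 factors were called higher. With 1 culture left out, log2 fold changes ran over -0.96 to 0.31 for Tbr1 (reversed without WT culture 3), -0.71 to -0.36 for Bcl11b, 0.21 to 0.33 for Sox5 and -0.30 to -0.20 for Rorb, and 0 to 1 factors were called higher and 1 to 3 lower.

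Over all excitatory neurons each of the 9 log2 ratios kept its sign under 8 alternatives. With clusters weighted equally they were 0.23 for Tbr1, 0.095 for Bcl11b, -0.21 for Fezf2, 0.23 for Sox5, -0.81 for Pou3f2, -0.22 for Pou3f3, -0.19 for Cux1, -0.027 for Cux2 and -0.32 for Rorb. Resolution 0.4, which gave no corticofugal class, moved Bcl11b to 0.16, Fezf2 to -0.19, Sox5 to 0.26, Pou3f2 to -1.03 and Cux2 to -0.086. Resolution 1.2 moved Fezf2 to -0.13, Sox5 to 0.25 and Cux2 to -0.070, and clustering with the 9 factors moved Sox5 to 0.25. Thinning to 5000 UMIs moved Tbr1 to 0.28, Bcl11b to 0.24 and Pou3f3 to -0.27, and scaling without mitochondrial, ribosomal, haemoglobin and sex genes moved Sox5 to 0.35. 19 of 81 ratios within a class changed sign under at least 1 alternative, 14 of which had intervals that held 0, such as Cux2 in corticofugal neurons. The other 5 were, when thinned, Fezf2 (0.52) and Sox5 (0.0061) in striatal-type GE neurons, and without called doublets, Pou3f2 in Cajal-Retzius cells (1.05) and in corticothalamic and subplate neurons (0.053) and Fezf2 in GE cells (0.040). The cause was not tested. With 1 embryo per genotype, no interval here covers the spread between embryos.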

Other observations

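A cluster without a name, led by Tafa1, held 182 WT and 589 cKO cells. It had 3 raised callosal markers, but their mean standardized level of 0.239 was under the limit of 0.25. At resolutions 0.4 and 1.2 and with the 9 factors kept, a cluster led by Tafa1 was named newborn neurons. In the unnamed cluster Pou3f2 had 185 CPM in WT and 108 in cKO, a log2 ratio of -0.78 (-0.96 to -0.61). Bcl11b had 307 and 463 CPM, a log2 ratio of 0.59 (0.48 to 0.71). The ratio was -0.58 (-0.72 to -0.44) for Cux1 and -0.54 (-0.66 to -0.41) for Pou3f3.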
